A study of Mus musculus with 2 samples.

Results

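The genes described here belong to the Notch pathway: the target genes Hes1, Hes5, Hey1, Hey2 and Nrarp, the ligands Dll1, Dll3 and Jag1, and the receptors Notch1 and Notch2. These 10 genes were chosen by name, in view of earlier results of the same contrast between the same arrays and with the question whether Hes5 moves with other Notch targets, so their differences are given as a description. All 10 were on the array, with 14 probes, and 9 of them were among the 23918 genes whose signal was well above background on both arrays. Total RNA of mouse brain on postnatal day 10 (strain C57BL/6J) had been hybridised to 1-colour Agilent arrays, 1 array for the genotype GPHR F/F;Nes and 1 for its control littermate, GPHR F/F. They are called the Nes brain and the control brain below. Both animals carried the GPHR F/F alleles. GPHR is the Golgi pH regulator, the product of Gpr89. The labels name no promoter for Nes, no deleted exons and no sex, and they do not say whether tissue of several animals was pooled.

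Notch receptors are cell-surface proteins that are activated by ligands of the Delta-like and Jagged families on neighbouring cells. Proteases then release the intracellular part of the receptor, which enters the nucleus and, with the DNA-binding protein RBPJ and Mastermind-like coactivators, switches on genes such as Hes and Hey. The proteins of the Hes and Hey genes are basic helix-loop-helix repressors that hold back proneural factors. In the developing brain the pathway keeps radial glia and other progenitors undifferentiated and favours glial fates, and it also patterns blood vessels.

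Hes5 and Nrarp were the members at least 2-fold lower in the Nes brain, so the sequences behind their values are shown first. The Hes5 probe nearer the 5' end of its transcript starts at transcript base 232 and lies at chr4:154335350-154335409 of mm9, plus strand. The first 30 bases follow for the second Hes5 probe (transcript base 1153, chr4:154336361-154336420, plus strand) and for the Nrarp probe (base 1760, chr2:25038038-25038097, plus strand). The same is shown for the probes of Hes1 (base 1388, chr16:30067820-30067879, plus strand) and Notch2 (base 10129, chr3:97953914-97953973, plus strand), which lay on the other side of 0. The brighter Notch1 probe (base 5898, chr2:26319440-26319499, minus strand) is shown whole.
Hes5, base 232: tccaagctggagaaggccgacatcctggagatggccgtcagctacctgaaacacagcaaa
Hes5, base 1153: aggattcctttgtatgggtgggtgcatgtg
Nrarp: ttttttgaatcttggttatgaacccaattt
Hes1: ttaaaatatcttcctttggggaagtttatt
Notch1: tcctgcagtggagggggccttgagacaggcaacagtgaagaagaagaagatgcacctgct
Notch2: ccacttgaagtcttgcatagaaatgaacca

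The promoter table of RefSeq (GRCm38.p6) held 9 windows for 8 of the 10 members, each of 300 bases from 250 before to 50 after a gene start. It held no window for Hes1 or Hey1, so the promoters of these target genes were not searched. The 250 bases before the start of Hes5 (chr4:154960673-154960922, plus strand) and of Nrarp (chr2:25180508-25180757, plus strand) are printed because these are the members with the lowest differences. Capitals mark GTGGGAA on either strand, the letters that RBPJ is known to bind, and the palindromic E box CACGTG, which many basic helix-loop-helix proteins bind.
Hes5: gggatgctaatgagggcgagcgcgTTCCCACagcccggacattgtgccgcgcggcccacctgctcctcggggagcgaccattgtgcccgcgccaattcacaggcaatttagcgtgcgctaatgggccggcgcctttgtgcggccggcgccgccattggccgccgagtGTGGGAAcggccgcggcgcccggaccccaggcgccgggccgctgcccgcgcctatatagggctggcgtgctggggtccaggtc
Nrarp: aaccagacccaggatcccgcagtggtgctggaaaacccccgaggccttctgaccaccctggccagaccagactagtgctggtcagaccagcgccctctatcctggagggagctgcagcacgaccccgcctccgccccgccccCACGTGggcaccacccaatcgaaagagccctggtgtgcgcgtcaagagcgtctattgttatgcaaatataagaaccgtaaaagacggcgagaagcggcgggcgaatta

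The Hes5 window held GTGGGAA at -83 on the strand of the gene and at -226 on the opposite strand, counted from the gene start to the first base of the match. Of all 32851 windows in the table, 6.38% held at least 1 match and 0.256% held 2 or more. Of the members with a window, which leaves out Hes1 and Hey1, Hey2 was the only other with a match, at -4 and -207. The Nrarp window held none, but CACGTG stood at -108, a motif found in 7.15% of all windows. CACGCG, a site that Hes proteins are known to bind, was found in windows of Dll1, Jag1 and Notch2 and in 9.27% of all windows. These are matches of letters within the windows. No binding was measured.

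As facts of both arrays, the 75th percentile of signal over probes lay at 259.5 units (control brain) and 173.4 units (Nes brain). All levels below are log2 signals relative to that percentile on the same array, so "higher" and "lower" are relative to it, and all differences are Nes brain minus control brain. The ± values are the error that the scanner software gives, a technical error that holds no difference between animals. With 1 array per genotype no difference was tested. The difference over all measured genes had a median of 0.07 and an SD of 0.57. Gpr89 itself differed by -0.53 ± 0.22, with a probe whose place relative to the deletion is not given. The arrays also differed in sex-linked genes. Xist had 1.36 units in control brain and 234.1 units in the Nes brain. Eif2s3y had 710.4 and 1.93 units by its brighter probe. These values are the pattern of male RNA on the control array and of female RNA on the other. Genotype and sex therefore cannot be told apart in any difference below.

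Among the target genes, Hes5 and Nrarp were lower in the Nes brain, Hey1 was lower by less, and Hes1 was on the higher side. Hes5, a main effector of Notch in neural progenitors and astrocyte precursors, had 2 probes and both were lower. At transcript base 1153 the signal was 4434.6 ± 443.5 units in control brain and 1413.1 ± 141.3 units in the Nes brain, which after scaling is a level of 4.09 against 3.03 and a difference of -1.07 ± 0.20. At transcript base 232 the signal was 58.6 ± 6.02 units and 14.8 ± 1.86 units, a difference of -1.41 ± 0.23. The probe nearer the 5' end, dim in both brains, thus showed the same direction as the bright probe. Their mean was -1.24 ± 0.16, a 2.36-fold lower normalised signal with an SD of 0.24 between the probes. After normexp with quantile normalization it was -0.76, under 2-fold, and under spike-in scaling it was -2.19.

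Nrarp, an ankyrin-repeat protein that is induced by Notch and limits its activity, had 35.2 ± 3.83 units in control brain and 8.72 ± 1.53 units in the Nes brain. Its difference of -1.43 ± 0.30 (2.69-fold lower) was the lowest among the members. The signal in the Nes brain was close to the lowest that counted as well above background on that array, 5.06 units, so this value rests on a dim spot of a single probe. After normexp background correction, which shrinks the differences of dim probes, it was -0.42.

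Hey1, a Notch-induced repressor of the Hairy-related family, had 1801.2 ± 180.1 units in control brain and 851.7 ± 85.2 units in the Nes brain. The difference was -0.50 ± 0.20, less than 2-fold. Hes1, the family member that is also induced by signals other than Notch, had nearly the same raw signal on both arrays, 43.1 ± 4.54 and 46.5 ± 4.80 units. Scaled to each array's percentile it stood at -2.59 and -1.90, a difference of 0.69 ± 0.21 (1.61-fold). Hey2, best known from heart and vessels, was not well above background on either array, at 2.80 and 2.75 units, so no difference is given. Hes5 therefore shared its direction with Nrarp and Hey1 and not with Hes1, which lay below 0 under spike-in scaling alone (-0.26).

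**Figure D1:**
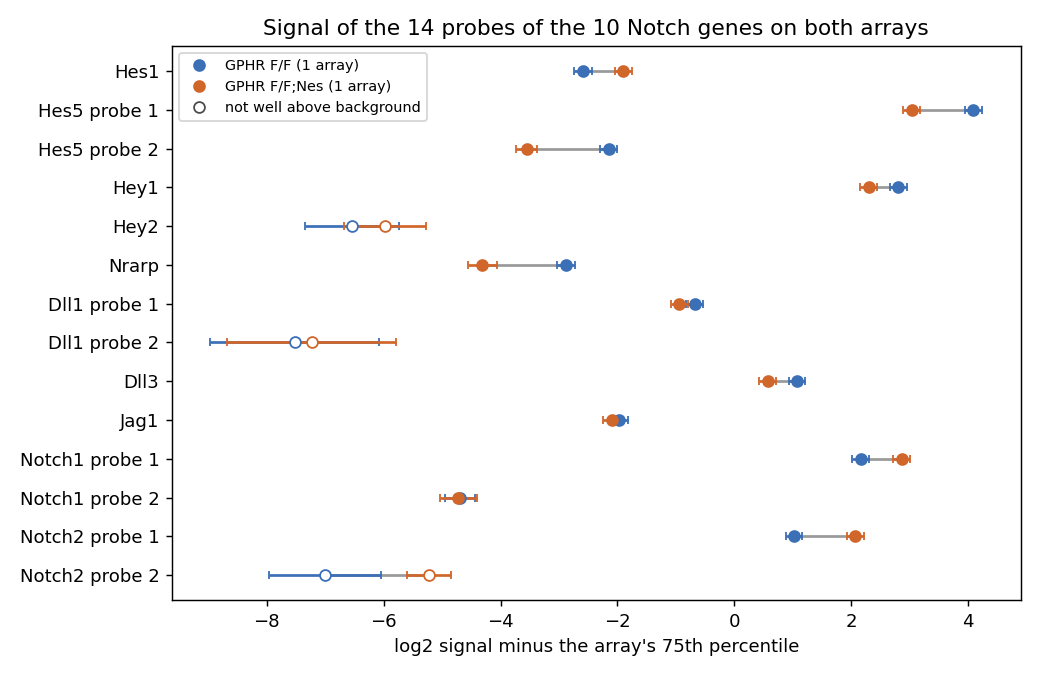
Log2 signal relative to the 75th percentile of each array (x axis) for all 14 probes of the 10 genes (y axis), with 1 point per array and the scanner software's error as bars; open points were not well above background. Both Hes5 probes and Nrarp lie to the left in the Nes brain, Hes1 and the first probes of Notch1 and Notch2 lie to the right (under spike-in scaling Hes1 and Notch1 were below 0); levels of different probes cannot be set against each other.

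The ligands were all on the lower side by less than 2-fold, except that Dll1 stood at 0.02 without a filter on dim probes. Dll3, a divergent Delta-like protein that is held mostly inside the cell, had 544.6 ± 54.5 units in control brain and 257.6 ± 25.8 units in the Nes brain, a difference of -0.50 ± 0.20. Dll1, the ligand of committed neural precursors, had 162.2 ± 16.3 and 90.5 ± 9.12 units by the probe that was measured, a difference of -0.26 ± 0.21. Its other probe, designed to an Ensembl transcript, was not above background on either array. Jag1, which activates Notch in vessels and glia among other cells, differed by -0.12 ± 0.21, from 66.1 ± 6.78 to 40.8 ± 4.28 units. The differences of Dll1 and Jag1 were close to or under the scanner error.

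The receptors were on the higher side, except that Notch1 stood at -0.61 under spike-in scaling, which put the median of all genes at -0.88. Notch2, expressed in glia and progenitors, had 528.0 ± 52.8 units in control brain and 728.9 ± 72.9 units in the Nes brain. Its level was 1.02 against 2.07, and the difference of 1.05 ± 0.20 (2.07-fold) made it the member that was at least 2-fold higher. It was 0.77 with each array centred on its own median and 0.10 under spike-in scaling, both under 2-fold. Notch2 was also the member whose raw signal was clearly higher in the Nes brain, by 1.38-fold. A second Notch2 probe, designed to an Ensembl transcript (chr3:97904420-97904479 of mm9), was not above background on either array, at 2.03 and 4.66 units.

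The probes of Notch1, the receptor with the widest role in neural progenitors and vessels, disagreed. The probe to the RefSeq transcript had 1157.5 ± 115.8 and 1260.2 ± 126.0 units, a difference of 0.70 ± 0.20. The probe to an Ensembl transcript had 9.95 ± 1.77 and 6.58 ± 1.44 units, a difference of -0.01 ± 0.41. The mean over both was 0.34 ± 0.23 with an SD of 0.51 between probes, so the value of Notch1 depends on which probe is read.

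In all, 2 of the 9 measured members were at least 2-fold lower, against 1.37% of all 23918 measured genes (328 genes), and 1 was at least 2-fold higher, against 7.94% (1899 genes). Because the genes were chosen with values of this contrast known, nothing is read from these shares. The members' median was -0.26, with 6 of 9 below 0, against 10280 of all 23918 genes, and a range from -1.43 to 1.05. By role, the medians were -0.87 over 4 target genes, -0.26 over 3 ligands and 0.70 over 2 receptors. The members did not share a direction.

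**Figure D2:**
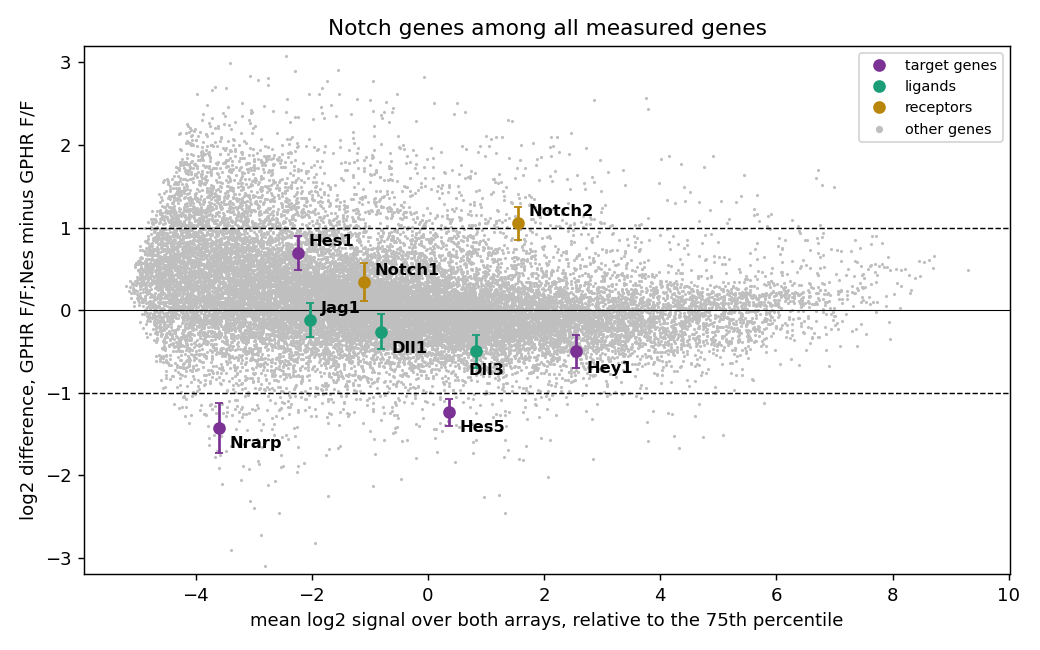
Difference (y axis, log2, Nes brain minus control brain) against mean log2 signal relative to the 75th percentile (x axis) for all measured genes (grey) and the 9 measured Notch genes (coloured by role, with the scanner error as bars); dashed lines mark 2-fold, and genes beyond 3.2 on the y axis are not drawn. Hes5 and Nrarp lie below the lower line, Notch2 lies just above the upper line, and the dimmest genes spread upward.

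Because differences over all genes depended on signal level, each member probe was also set beside all probes within 0.25 log2 units of its mean level. Around the bright Hes5 probe, 958 probes had a median difference of -0.13 and an SD of 0.41, and 0.626% were as low or lower. Around the dim one, 2579 probes had a median of 0.20, and 0.814% were as low or lower. For Nrarp these values were 2591 probes, a median of 0.31 and 0.772%. Both Hes5 probes and Nrarp lay near the low edge at their own levels. The members were chosen with values of this contrast known, so the shares in this paragraph are a description only. Hes1 lay inside the bulk, since 16.2% of 2574 probes around it were as high or higher. For Notch2 that share was 2.71% of 1589 probes and for the brighter Notch1 probe 4.38% of 1371. For Hey1, 11.9% of probes of its level were as low or lower, for Dll3 10.5%, for Dll1 22.1% and for Jag1 28.4%.

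The other genes of the pathway were centred near 0. Of 65 further genes listed by role, all on the array, 62 were measured on both arrays. None of the 62 was at least 2-fold lower, against 1.37% of all measured genes, and 1 was at least 2-fold higher, against 7.94%. Their median was 0.05, against 0.07 over all genes, with 34 above 0 and 28 below (13638 and 10280 over all genes). The gene past 2-fold was Rbpjl, a relative of Rbpj whose known site of expression is the pancreas, at 1.65 ± 0.31 from 8.72 units in control brain and 18.2 units in the Nes brain, a dim probe on both arrays. Rbpj itself, the DNA-binding partner of all Notch receptors, differed by 0.24 ± 0.14.

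The other receptors were near 0, Notch3, the receptor of mural cells, at -0.04 ± 0.20 and Notch4, that of endothelium, at -0.08 ± 0.21. Of the other ligands, Jag2 stood at -0.36 ± 0.21, the neuronal ligand Dner at -0.39 ± 0.14 and the non-canonical ligand Dlk1 at 0.75 ± 0.15. Dll4, the ligand of endothelial tip cells, was well above background in the Nes brain alone, with 11.1 units against 6.27 units, at least 2.63-fold higher there. That bound leaves out a scanner error of 0.40 log2 units and rests on a dim probe. Of the other Hes and Hey factors, Hes6, which counteracts Hes1, stood at -0.07 ± 0.15 and Hes2 at 0.73 ± 0.21, while Hes3 and Heyl were above background on neither array. No other measured Hes or Hey gene was at least 2-fold lower. Of all measured genes 1.37% were, so with these few genes nothing is read from that.

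Among the 22 cofactor genes, the corepressor Tle1, a partner of Hes proteins, was lowest at -0.77 ± 0.12, with all 3 probes between -1.03 and -0.59. The 10 protease genes ranged from -0.54 for Aph1b, a subunit of gamma-secretase, to 0.46 for Aph1a, a subunit of the same complex. Of the glycosyltransferases that tune ligand choice, Lfng had the largest difference, 0.58 ± 0.20. The 14 ubiquitin ligase and trafficking genes ran from -0.63 ± 0.20 for Neurl1a, which promotes ligand uptake, to 0.72 ± 0.22 for Dtx3l. Of 69 promoter windows for 52 of the 65 genes, 6 held GTGGGAA, against 6.38% of all 32851 windows. They were windows of Aph1a, Hes7, Lfng, Psen2, Rbpjl and Spen.

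**Figure D3:**
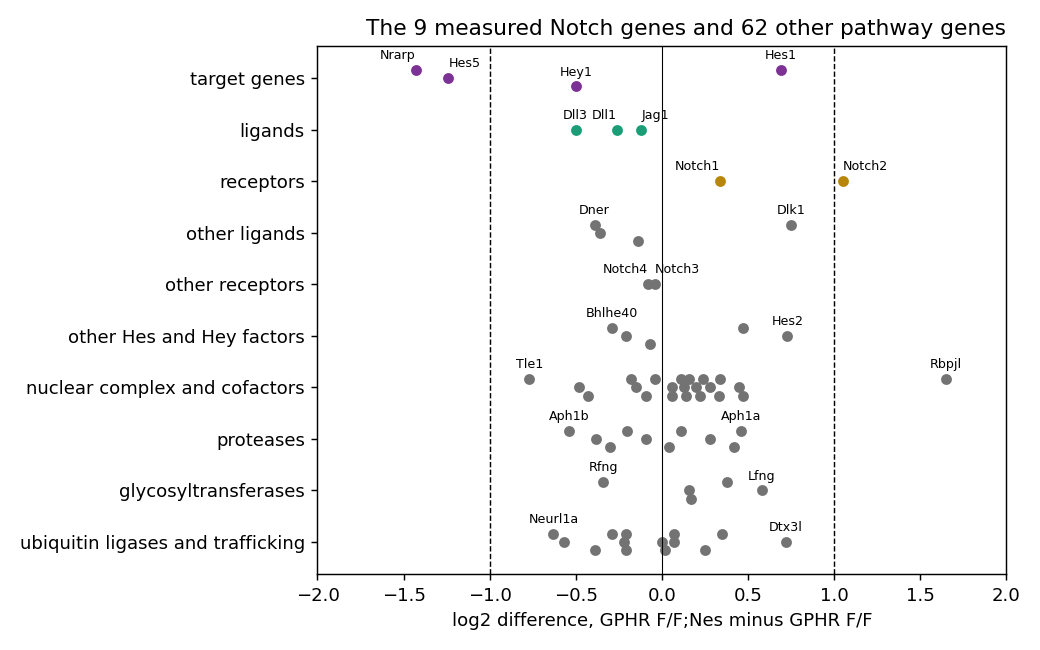
Log2 difference (x axis, Nes brain minus control brain) of the 9 measured Notch genes (coloured) and the 62 other measured pathway genes (grey), by role (y axis), with 1 point per gene, a vertical offset for legibility only and dashed lines at 2-fold. Of the grey points, Rbpjl at 1.65 lies outside the lines and all others lie between them.

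Proneural and neuronal differentiation factors, some of which Hes proteins are known to repress, differed in both directions. Of 9 listed, 7 were measured, with a median of 0.02. Neurod1, a differentiation factor of granule and other excitatory neurons, was the member of the list at least 2-fold lower, at -1.39 ± 0.20, from 514.3 to 131.0 units. Neurog2 stood at -0.12 ± 0.27. Atoh1, the factor of cerebellar granule cell precursors, was well above background in the Nes brain alone, with 8.76 units against 3.98 units, at least 2.09-fold higher there. That bound leaves out a scanner error of 0.60 log2 units and rests on a dim probe.

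Markers of brain cell types lay on both sides of 0. Whole brain RNA was measured, so fewer cells of a type and less RNA per cell cannot be told apart. Astrocyte and radial glia markers had a median of 0.09 over 13 of 13 genes, none 2-fold apart, with Gfap at 0.82 ± 0.14 and Gjb6 at -0.65 ± 0.22. Their summed level, in multiples of the 75th percentile, was 228.8 in control brain and 225.5 in the Nes brain. Progenitor markers had a median of 0.81 over 10 of 10 genes, with 9 above 0, Vim at 1.14 ± 0.20 and Prom1 at 1.1 ± 0.20, and a summed level of 62 against 117.7. These sums are carried by the brightest probes, mainly Fabp7, Aldoc and Ndrg2 for astrocytes and Vim for progenitors, so they do not stand for their lists as a whole.

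Oligodendrocyte precursor markers, all 8 of which lay below 0, had a median of -0.33, led by Gpr17 (-2.46 ± 0.20) and Sox10 (-0.88 ± 0.20), with a summed level of 59.2 against 43.0. The 8 neuronal markers had a median of -0.22, with Nefm at -1.60 ± 0.14 and Nefl at -1.14 ± 0.14, and a summed level of 85.7 against 66.6. Endothelial markers were measured for 5 of 10 genes, with a median of 1.20, led by Flt1 (1.35 ± 0.21) and Kdr (1.23 ± 0.20). Their summed level was 2.82 against 6.42, most of it from Kdr alone. Pecam1, a defining endothelial gene, stood at -0.07 ± 0.23, with 27.6 units in control brain and 17.5 units in the Nes brain. The defining genes Cdh5, Cldn5, Tek and Tie1 were not well above background on either array. Mural markers had a median of 1.02 over 5 of 8 genes, with Vtn at 2.89 ± 0.23 and Tagln at 1.83 ± 0.20. Their summed level was 12.3 against 38.4, most of it from Tagln alone. Rgs5 and Kcnj8 were not well above background on either array. The 3 measured probes of Acta2 differed by 0.17, 1.54 and 1.36. The part of these cell types in the values of Hes5, Nrarp, Hes1, Notch1 and Notch2 was not tested.

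Most measured markers of choroid plexus and ependyma, of meninges and fibroblasts and of microglia were higher in the Nes brain. Choroid plexus and ependyma markers had a median of 1.43 over 5 of 7 genes, led by Ttr (5.35 ± 0.22) and Rarres2 (1.60 ± 0.20), and a summed level of 2.68 against 10.3. Meningeal and fibroblast markers had a median of 2.61 over 7 of 7 genes, led by Slc6a13 (2.84 ± 0.28) and Igf2 (2.78 ± 0.16). Dcn, a matrix proteoglycan and the gene of this list below 0, stood at -0.07 ± 0.20 and made up most of the summed level, which was 7.41 against 10.7. Microglia markers had a median of 1.69 over 5 of 7 genes, led by Trem2 (2.14 ± 0.23) and Tyrobp (2.08 ± 0.24), and a summed level of 1.54 against 2.55. Notch2 and Hes1 lay on the same side of 0 as these lists. Their part in those values was not tested.

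Scaling changed the sign of some members. Scaling to spike-in RNAs moved the median of all genes by -0.95, and with it Hes1 and Notch1. Relative to the median of all genes in each of 12 settings, Hes5 stayed between -1.51 and -0.75, Hey1 between -0.77 and -0.37, Dll3 between -0.77 and -0.37 and Notch2 between 0.97 and 1.14. On the same footing Hes1 ranged from 0.21 to 0.69 and Notch1 from 0.07 to 0.70. Subtracting the median cancels a shift of a whole array. Median centring and spike-in scaling thus repeat the values of the main setting here by construction. Nrarp, which the stricter filter on dim probes removed, ranged from -1.76 to -0.41 in the other 11 settings.

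**Figure D4:**
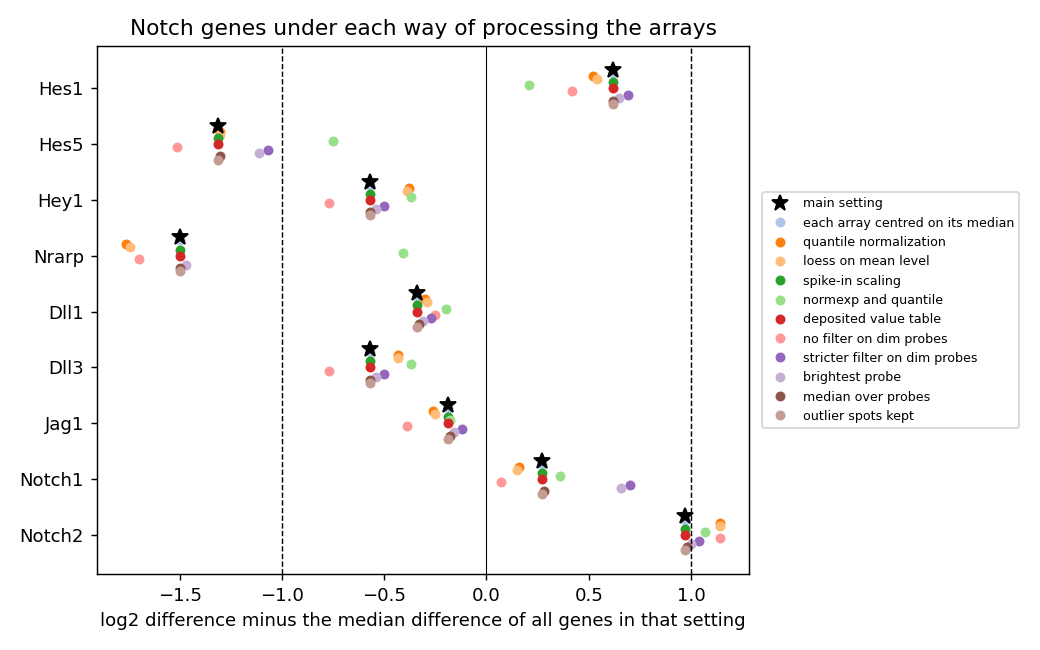
Log2 difference of the 9 measured Notch genes minus the median difference of all genes in the same setting (x axis), by gene (y axis), with 1 point per setting and a star for the main setting; dashed lines mark 2-fold. Each gene kept its side of 0 in the settings drawn. The subtraction cancels a shift of a whole array, and with it the sign changes of Hes1 and Notch1 under spike-in scaling. The points of Nrarp and Hes5 nearest to 0, at -0.41 and -0.75, are those after normexp background correction.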

How the data were processed

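The deposited scanner output of Agilent Feature Extraction 11.5.1.1 (per the submitters' processing notes) gives an intensity per spot, with background subtracted and spatial trends removed, per the file headers. The deposited flags (other values, 0 or 1) mark spots well above background, saturated or outliers. No spot was saturated. The authors' deposited value table is on the log2 scale: it equalled the log2 processed intensity plus 1 constant per array (-8.01 and -7.43) for 99.9% of probes within 0.001, with medians of -3.19 and -2.92. The sources used here do not give how the constants were set.

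Each array held 62976 spots. Outlier spots were dropped, spots of a probe were averaged as log2 values (56603 probes), and the 75th percentile was subtracted. Of the probes, 36717 were well above background on both arrays (67.0% and 69.2% on each), and a gene's value was their mean. A gene above background on 1 array alone got a bound against whichever was higher, its own dim signal or the weakest probe well above background (6.28 units in the control, 5.06 units in the Nes brain). Symbols were updated through RefSeq (GRCm38.p6), where 32993 probe accessions matched; probe coordinates are mm9. Exon and UTR positions of probes were not analysed here. Named were all 10 members, pathway genes past 2-fold or with a bound, the largest difference of each role (for some roles both ends of the range), a few fixed pathway and proneural genes, and the 2 largest differences of each marker list. Further markers were named where they limit a list. For 1 gene of the proneural list the value is not reported here. The members and lists were chosen with earlier results of these data known. With 1 array per group no test was made, and the number of arrays limits the precision. The calculation was tested on simulated arrays. Analyses ran in Python 3.11.15 and R 4.3.3 with limma 3.58.1; alternatives are in the closing section.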

Additional observations from a re-analysis of the deposited data

How the results depend on the processing

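The main limit is 1 array per genotype, with sex-linked genes differing between the arrays as well, so genotype and sex cannot be told apart. The difference of Hes5 was -1.24 and lay below 0 in all 11 alternatives, not all of which could change it. With 2 probes, both well above background, the median over probes and no filter leave it at -1.24 by construction. It was also -1.24 with outlier spots kept and in the deposited value table. It was -1.07 with the brightest probe and with the stricter filter on dim probes, -0.76 after normexp with quantile normalization, -1.51 with median centring of the arrays and -2.19 after spike-in scaling. The members' median of -0.26 was -0.54 with median centring and -1.21 after spike-in scaling. The 2 members at least 2-fold lower became 0 after normexp, 6 after spike-in scaling, 1 with the stricter filter, which drops Nrarp, and 0 at a 3-fold threshold. The 1 member at least 2-fold higher became 0 with median centring, after spike-in scaling and at 3-fold, and 2 at 1.5-fold. Of the pathway genes, the 1 higher became 3 without a filter, 0 after normexp, after spike-in scaling and with the stricter filter, and 4 at 1.5-fold; the 0 lower became 1 with median centring, 26 after spike-in scaling and 2 at 1.5-fold. Of the proneural genes, the 0 higher became 1 with the loess correction, without a filter and at 1.5-fold, and the 1 lower became 2 after spike-in scaling and 0 at 3-fold. The stricter filter and the 3-fold threshold leave fewer genes by construction, and the 1.5-fold threshold admits the same number or more. Median centring and spike-in scaling shift all genes alike, by -0.28 and -0.95, which by itself sets their counts. For the others the cause was not tested. The share of higher genes among all 2-fold genes was 85.3%, 68.6% after quantile normalization, 72.6% after loess, 57.1% with median centring and 1.99% after spike-in scaling. No paired analysis was possible because each group held 1 array.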

Other observations

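Notch2, the member at least 2-fold higher, lies on the chromosome of the targeted gene. On mm9 the Gpr89 probe spans chr3:96684051-96684564 and the Notch2 probe chr3:97953914-97953973, 1.27 Mb apart. The 9 genes measured between them had a median difference of 0.24 and ranged from -0.55 for Pde4dip, a centrosome and Golgi scaffold, to 1.24 for Fmo5, a flavin monooxygenase, the gene of the 9 past 2-fold. Both animals carried the GPHR F/F alleles, and whether the difference of Notch2 is tied to this neighbourhood was not tested.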
